A study of Mus musculus with 2 samples.

Results

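The AP-2 transcription factors are a family of 5 mouse genes, Tfap2a, Tfap2b, Tfap2c, Tfap2d and Tfap2e, which the array measured with 6 of its 39429 probes. The members were taken by gene symbol, and the RefSeq accession of each probe led to the same symbol. The family was picked with the mutant over control ratio of Tfap2b already known, so the ratios of its members are given as a description, without a test. The 5 array genes with names that begin Ap2 (Ap2a1, Ap2a2, Ap2b1, Ap2m1 and Ap2s1) encode a clathrin adaptor, are not related to these factors and were not included. The samples were ureters dissected from NMRI embryos at stage E13.5. The mutant pools carried Pax2-cre/+ together with Fgfr1(fl/?) and with Fgfr2(fl/fl), where the question mark stands for a wild-type or a floxed allele, so embryos with and without a second floxed Fgfr1 allele were mixed. The control pools were Fgfr1(fl/?) and Fgfr2(fl/?) and carried no Cre. Floxed alleles of both receptors were therefore present in the mutant and in the control pools. Array 1 compared a female mutant pool in Cy5 with a female control pool in Cy3, and array 2 a male mutant pool in Cy3 with a male control pool in Cy5. Sex, dye orientation and replicate change together between the arrays and cannot be told apart. The labels do not give the number of embryos in a pool or the cells in which the Cre was active.

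AP-2 proteins bind DNA as dimers through a basic region joined to a helix-span-helix motif, and the members recognise similar GC-rich sites. They act in the development of neural crest, surface ectoderm, limb, kidney and the germ line. Mice without Tfap2b develop cysts in the distal tubules and collecting ducts of the kidney, Tfap2a is a main factor of neural crest and ectoderm, and Tfap2c acts in trophoblast and primordial germ cells. Fgfr2 encodes a receptor of fibroblast growth factors, which signals through ERK to ETS factors and feedback inhibitors.

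Each AP-2 gene apart from Tfap2a had 1 probe, a 60-base oligonucleotide printed in 4 spots, and Tfap2a had 2 probes. The array design places them on mm9. The first 30 bases of each probe, 5′ to 3′ as the design gives them, are shown because the ratios of the family rest on these oligonucleotides alone.
Tfap2b, chr1:19228555-19228614, plus strand: tcttctgttctttatagacaagctgttatg
Tfap2a, brighter probe, chr13:40811044-40811103, minus strand: ctatgcctgtcaatgtatcatagtcctttg
Tfap2a, dimmer probe, chr13:40829040-40829099, minus strand: acgccgatccatgaaaatgctttggaaact
Tfap2c, chr2:172383860-172383919, plus strand: tttatgcgagtgcacacagggtattgaaac
Tfap2d, chr1:19138386-19138445, plus strand: caaatttgtaaagaatttcaagacctcctg
Tfap2e, chr4:126393440-126393499, minus strand: gctgataacacatcagaggtgctattgaag

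The probes target transcripts, so each lies in exonic sequence, and whether it falls in a coding part or a UTR is not annotated in the files. The longest run of bases shared by any pair of full-length probes was 8, between the dimmer Tfap2a probe and the Tfap2c probe. The Tfap2b probe starts at base 5795 of its transcript and is listed for 3 RefSeq mRNAs. The brighter Tfap2a probe starts at base 3068 and is listed for 3 RefSeq mRNAs. The dimmer one starts at base 337, lies 17936 bases away in the genome and is listed for only 2 of those mRNAs. The pair of Tfap2a probes therefore reports overlapping but unequal sets of transcripts.

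Of all probes, 67.9% to 77.0% were well above background per channel, and no spot was saturated. The 2 Fgfr2 probes had log2 ratios of mutant over control between 0.06 and 0.27, so neither showed a loss of Fgfr2 RNA. Whether they lie in the deleted segment is not given, and outside it they check nothing. Ratios of the 3 Fgfr1 probes ran between -0.44 and 0.51. On the male array Xist RNA, made from the inactive X chromosome of female cells, had a ratio of -1.60 at its brighter probe, with the male mutant pool at a log2 level of 8.39. Both female pools were at 12.42. Ddx3y, a gene of the Y chromosome, was at 8.15 in the female and 11.88 in the male mutant pool, against 8.44 and 11.57 in the female and male control pools. Eif2s3y, another Y chromosome gene, was at 8.27 and 11.22 in these mutant pools, against 8.41 and 11.51 in the control pools. On the male array the Y genes thus went opposite ways, with ratios of 0.31 for Ddx3y and -0.30 for Eif2s3y. All of these levels lay above the highest background limit of 6.43, so each pool gave signal at a probe for a gene of the other sex. Xist signal was lower in the male mutant than in the male control pool, and the part of this in the AP-2 ratios was not tested. Across all 20923 tested genes, which are not independent replicates, array 1 and array 2 correlated at -0.02 (Pearson). Pairs of ratios below are log2 mutant over control, array 1 before array 2.

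Tfap2a and Tfap2b gave clear signal, Tfap2c lay close to the background limit, and Tfap2d and Tfap2e stayed under it. A probe counted as detected in a pool where a share of more than 0.5 of its unflagged spots stood well above background, and it was tested if both mutant pools or both control pools detected it. The probes of Tfap2a, Tfap2b and Tfap2c met this, so 4 of the 6 probes and 3 of the 5 genes were tested. All 4 spots of the Tfap2b probe and of both Tfap2a probes were well above background in all 4 pools. For Tfap2c, 3 and 4 of 4 spots reached this in the mutant pools and 4 and 3 in the control pools, on array 1 and array 2. Tfap2d and Tfap2e had 0 of 4 spots well above background in every pool. Their levels, from 6.08 to 6.23 on the normalised log2 scale, were under the lowest level of any probe well above background, which ran from 6.25 to 6.43 over the 4 channels.

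**Figure D1:**
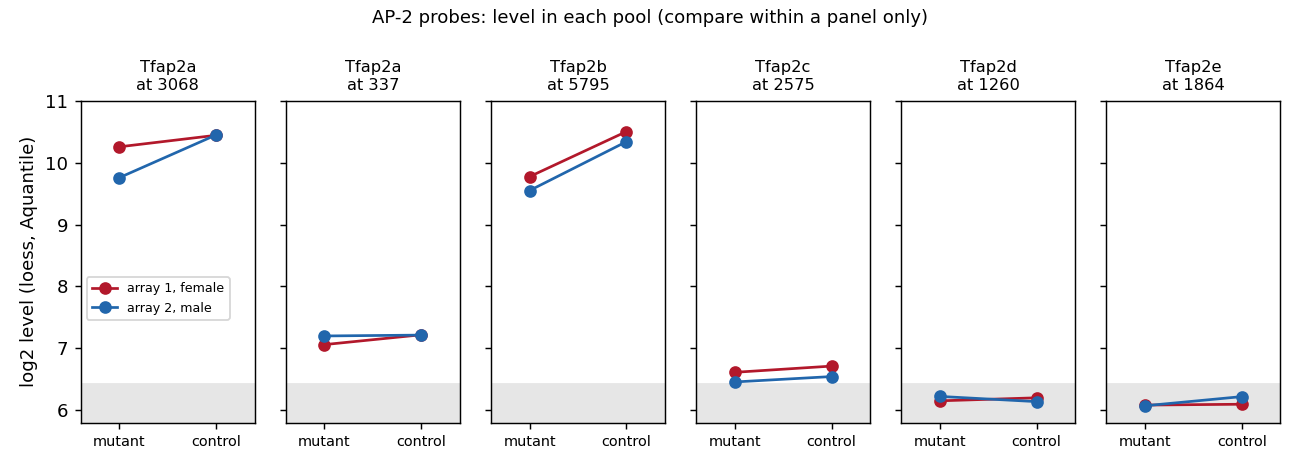
Normalised log2 level of each AP-2 probe in the mutant and the control pool, with array 1 (female) in red and array 2 (male) in blue and a line joining the pools of an array. The grey band ends at 6.43, the highest of the 4 lower limits of measured signal, and levels can be compared within a panel only. Tfap2b was lower in both mutant pools, the brighter Tfap2a probe was lower mainly in the male mutant pool, and Tfap2d and Tfap2e stayed in the band.

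Tfap2b, the family member known for its part in the distal nephron, was lower in the mutant pool on both arrays. Its level was 9.77 in the female mutant pool and 9.55 in the male mutant pool, against 10.50 in the female control pool and 10.34 in the male control pool. Both mutant pools lay under both control pools. The log2 ratios were -0.73 on array 1 and -0.79 on array 2, a mean of -0.76 ± 0.044 (SD, n = 2 arrays), or 1.69-fold lower in the mutant. The spots of an array, which are technical repeats, ran from -0.90 to -0.58 on array 1 and from -0.93 to -0.64 on array 2. No spot was above 0, and the SD over the 4 spots was 0.13 on array 1 and 0.14 on array 2, more than the difference between the arrays. Because the RNA came from whole ureters, fewer cells with Tfap2b and less Tfap2b RNA per cell cannot be told apart, here and for every gene below.

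Tfap2a, a main regulator of neural crest and surface ectoderm, differed between the arrays and between its probes. At the brighter probe the level was 10.25 in the female and 9.76 in the male mutant pool, against 10.44 and 10.45 in the female and male control pools. The control pools were nearly equal, and the male mutant pool was the lowest of the 4. The ratio was -0.19 on array 1, with spots from -0.31 to -0.05, and -0.69 on array 2, with spots from -0.76 to -0.59. Every spot was below 0, and the spots of the 2 arrays did not overlap. The mean was -0.44 ± 0.36 (SD, n = 2 arrays), so the spread between the arrays was nearly as large as the difference. The dimmer Tfap2a probe was at 7.06 and 7.20 in the mutant pools and 7.22 and 7.22 in the control pools, with ratios of -0.16 and -0.01. On array 2 it thus did not show the difference seen at the brighter probe, and after median centring in place of loess its array 2 ratio was 0.03. With an offset of 50 added to every signal, ratios of dim probes are drawn towards 0. The mean net signal of this probe was 64.4 to 98.5 intensity units, against 755 to 1569 for the brighter one. With the scanner's processed signals, which carry no such offset, the dimmer probe was at -0.28 and -0.14.

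**Figure D2:**
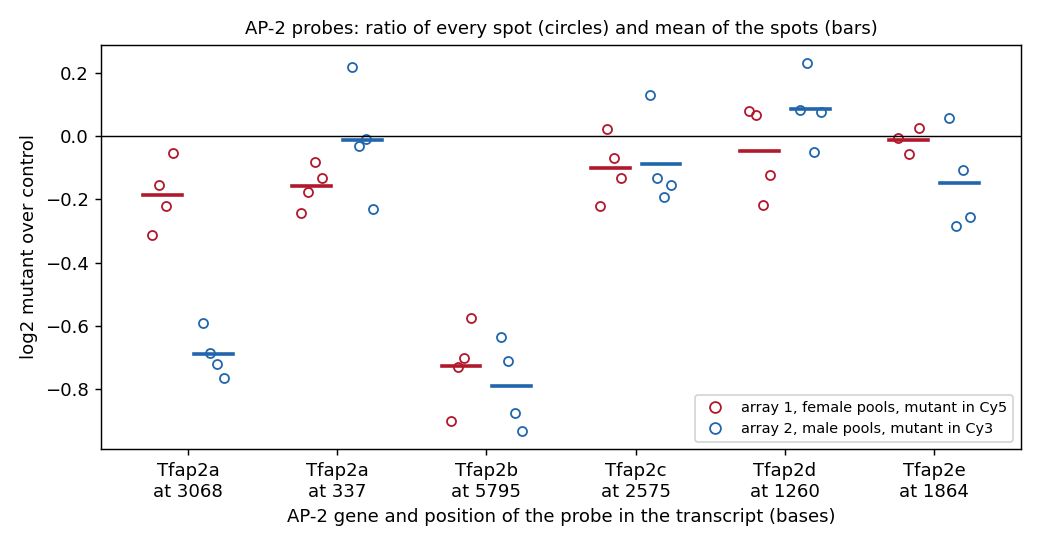
Log2 mutant over control of every spot that carried no outlier flag (circles) and the mean of the spots (bars) for the 6 AP-2 probes, array 1 in red and array 2 in blue. The Tfap2b spots lie between -0.93 and -0.58 on both arrays, and the spots of the brighter Tfap2a probe lie lower on array 2 than on array 1.

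Tfap2c, which acts in trophoblast and germ cells, was close to the background limit. Its level was 6.62 and 6.46 in the mutant pools and 6.72 and 6.55 in the control pools. The ratios were -0.10 on array 1 and -0.09 on array 2, with 3 of 4 spots below 0 on each and an SD over spots of 0.10 and 0.15. The ratio was thus within the spread of the spots on both arrays. It is also the AP-2 gene whose value moved most with the background correction among the 3 tested genes, to -0.55 and -0.31 with the processed signals. Tfap2d, expressed in parts of the developing brain and retina, had ratios of -0.05 and 0.08, and Tfap2e, known from the olfactory system, of -0.01 and -0.15. Both are ratios of signals not well above background and show no level. In the authors' deposited table both are listed at a fold of exactly 1 on both arrays, as are 24.2% of all probes and 0% of the tested ones. The same deposited table gives Tfap2b a signed fold of -1.87 and -1.68 and the brighter Tfap2a probe one of -1.11 and -1.70. A negative sign there means lower in the mutant, as the comparison with the scanner ratios showed (Pearson correlation 0.91 and 0.94).

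By the brightest probe, the 3 tested AP-2 genes were lower in the mutant pool on both arrays, as were 21.4% of all tested genes, and 22.1% of all genes were higher on both. With median centring instead of loess the split was 7974 lower and 3250 higher, against 4483 and 4627 with loess. Tfap2b alone was at least 1.5-fold lower on both arrays, as were 0.0956% of all tested genes (20 of 20923). Since the family was chosen on this contrast, these counts describe it only. Tfap2b had the 13th largest mean difference of those 20 genes and the 18th lowest mean ratio of all genes. On array 1 0.109% of tested probes had a ratio as low as that of Tfap2b, and on array 2 0.731%. For the brighter Tfap2a probe these shares were 12.2% and 1.27%. Over all genes limma called 6, or 0.0287%, at an adjusted p of 0.05, all higher in the mutant, and 845 genes, or 4.04%, had an unadjusted p under 0.05.

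Entries with only a clone, predicted-gene or accession name were left out of the next comparison. Among the remaining genes, those with the most similar pair of ratios were found by distance in the plane of the 2 arrays. They were Foxf1, a forkhead factor of the mesenchyme, at -0.64 and -0.81, Sel1l3 at -0.81 and -0.70 and the potassium channel gene Kcnj16 at -0.76 and -0.90. Next came Atp1b1, a subunit of the sodium pump, at -0.65 and -0.67, and Gsta2, a glutathione transferase, at -0.70 and -0.61. The likeness of Gsta2 depends on the treatment of the signals, since its mean of -0.65 was -1.17 with the processed signals, where that of Tfap2b was -0.81. In the authors' deposited table the means were -1.18 for Gsta2 and -0.83 for Tfap2b. Their distances from Tfap2b ran from 0.090 to 0.18 log2 units over 2 arrays. A second, dimmer Foxf1 probe was at -0.11 and -0.31 and was less like Tfap2b.

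**Figure D3:**
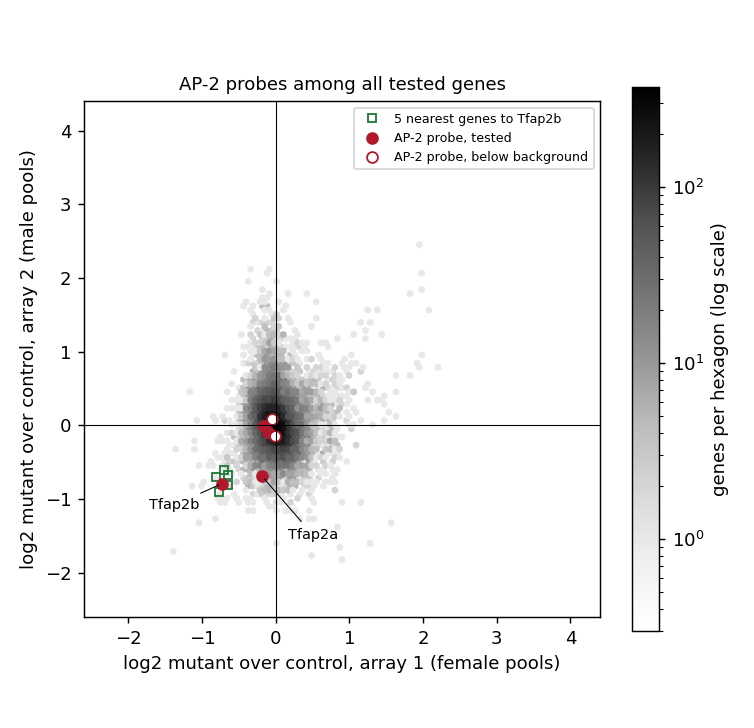
Log2 mutant over control on array 1 (x axis) and array 2 (y axis) for all 20923 tested genes as grey hexagons. The AP-2 probes are red circles (open where not well above background). Green squares are the 5 genes nearest to Tfap2b, leaving out entries with only a clone, predicted-gene or accession name. Tfap2b, at -0.73 and -0.79, lies at the lower left edge of the cloud, the brighter Tfap2a probe, at -0.19 and -0.69, under its centre, and the other AP-2 probes inside it.

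The proteins that work with AP-2 factors were measured as well. The list held 13 coactivators, inhibitors and partners, all tested. Of these, 5 were lower and 2 higher on both arrays, none by 1.5-fold, and the median was -0.08 against 0.0044 for all genes. After median centring the list median was -0.24. The median was 0.05 on array 1 and -0.20 on array 2. Among the CITED coactivators, which bridge AP-2 to p300 and CBP, Cited4 was at -0.30 and -0.40 and Cited2 at -0.16 and -0.47, with -0.40 and -0.62 at the other Cited2 probe. Cited1 was at 0.05 and 0.24, and its mean turned to -0.01 after median centring. Of the inhibitors with a KCTD domain, Kctd1 was at -0.02 and -0.23 and Kctd15 at 0.01 and -0.16. Parp1, which can bind AP-2, was at 0.25 and 0.45. After median centring the mean of Parp1 was 0.20 in place of 0.35, that of Kctd1 -0.24 in place of -0.13 and that of Kctd15 -0.24 in place of -0.07. No gene of the list was called by limma after adjustment. None had an unadjusted p under 0.05 either, against 4.04% of all tested genes.

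Genes reported in the literature as AP-2 targets were more often higher than lower in the mutant pools. Of 19 such genes 18 were tested. On both arrays 2 were lower and 10 were higher, against 21.4% and 22.1% of all tested genes. The list median was 0.10, which became -0.01 after median centring. Erbb2, a receptor gene known as an AP-2 target in breast cancer, was at 0.01 and 0.01, and the basal keratin genes Krt14 and Krt5 at 0.04 and 0.06, and at 0.08 and 0.05. These 3 genes were named after their values were seen. Apoe, a lipid carrier also made by macrophages, was at 0.50 and 0.60, and the adhesion molecule Mcam at 0.71 and 0.30, with -0.05 and 0.35 at its other probe. After adjustment limma called none, and unadjusted values under 0.05 were found for 2, both higher, against 4.04% of all tested genes. Leukocyte markers were higher on the same arrays, with a median of 0.59, and their part in these ratios was not tested.

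Other transcription factors of the duct and ureteric epithelium were mostly lower in the mutant pools. Of 17 on the list 16 were tested. Against shares of 21.4% and 22.1% over all tested genes, 11 of the 16 had a negative ratio on both arrays and 1 a positive one. Their median was -0.29 over the arrays, -0.21 on the female and -0.36 on the male array. Elf5, an ETS factor, was at -0.63 and -0.60 and was the only one of them at least 1.5-fold lower on both arrays. Gata3, needed for growth of the nephric duct, was at -0.30 and -0.62, and Grhl2, an epithelial junction regulator, at -0.62 and -0.35. Grhl3, another grainyhead factor, was the one higher on both arrays, at 0.65 and 0.41. Of the tested genes, 4 differed in sign between the arrays. Pax2 was at -0.11 and 0.97, Pax8 at -0.59 and 0.04, Lhx1 at -0.30 and 0.18 and Elf3 at 0.10 and -0.57. Gata3, Grhl2, Grhl3 and these 4 genes were named after their values were seen. After adjustment limma called none of the 16 tested genes. Of 6 with an unadjusted p under 0.05, against 4.04% of all tested genes, 5 were lower.

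The labelled tissue was checked by its markers. All 14 markers of ureteric epithelium and all 11 of ureteric mesenchyme were detected. Among the epithelial markers 7 had negative and 4 positive ratios on both arrays, against 21.4% and 22.1% of all tested genes. The epithelial medians were -0.19 on the female and -0.28 on the male array. Upk3a, a surface protein of urothelium, was at 1.45 and 1.24, the highest mean ratio of the list. The lowest was that of Shh, at -0.63 and -0.45, which was named after its values were seen. Among the mesenchymal markers 7 were lower and 1 was higher in the mutant pool on both arrays, and the medians were -0.13 on the female and -0.50 on the male array. Over both arrays the epithelial median was -0.16 and the mesenchymal one -0.27, and after median centring they were -0.29 and -0.42. The list of FGF and ERK feedback genes had 8 of 10 with negative and 0 with positive ratios on both arrays. Its median was -0.27, against -0.47 with the processed signals, -0.46 in the authors' deposited table and -0.40 after median centring. Egr1, an ERK-induced factor, averaged -0.87 ± 0.18 (SD, n = 2 arrays). Adjusted values from limma called no gene of these 3 lists. Unadjusted p-values under 0.05 were found for 7 epithelial (5 lower, 2 higher), 3 mesenchymal (2 lower, 1 higher) and 4 feedback genes (all lower). Over all tested genes the share was 4.04%.

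Markers of tissues in which AP-2 genes are known to act had positive medians of the mean ratio in all 4 lists, but most were close to 0. Against 0.0044 for all tested genes, they were 0.03 for distal nephron, 0.04 for surface ectoderm and 0.03 for germ cells. Only neural crest and sympathetic neurons had a larger one, 0.31. For distal nephron, however, the median was negative on each array taken alone. The medians of distal nephron and germ cells changed sign under other treatments of the signals. Of 16 distal nephron markers 11 were tested, and Slc12a1, Slc12a3, Umod, Trpv5 and Kcnj1, which define differentiated tubule segments, were too dim to be tested. Of those tested 4 had negative and 2 positive ratios on both arrays, against 21.4% and 22.1% of all tested genes. The median of the mean ratios was 0.03, but the median was -0.02 on array 1 and -0.16 on array 2. The median of the mean ratios became -0.01 with the processed signals and -0.02 both after median centring and in the authors' deposited table. Kcnj16 was the only one at least 1.5-fold lower on both arrays. Kcnj10, whose product forms channels with that of Kcnj16, averaged -0.71 ± 0.55 (SD, n = 2 arrays) and was named after its values were seen. Surface ectoderm and epidermis markers had a median of 0.04 over 9 tested genes, of which 5 were higher and 1 lower on both arrays, and Krt17 and Dsg3 were too dim to be tested. Perp, a desmosomal gene, was at 0.27 and 0.17, and its mean of 0.22 became 0.13 after median centring. Krt15, a basal keratin gene, was at 0.19 and 0.15, and its mean of 0.17 became 0.41 with the processed signals. Neural crest and sympathetic neuron markers, 14 in all, included 11 higher and 1 lower on both arrays, and their median was 0.31. Sox10 and Foxd3, factors of neural crest, were at 0.08 and 1.22 and at 0.05 and 1.19, so most of the difference was on the male array. The mean of Foxd3, 0.62, was 1.03 in the authors' deposited table. Of 6 tested germ cell markers 3 were higher and 0 lower on both arrays. Their median was 0.03, which turned to -0.01 after median centring and to -0.0011 in the authors' deposited table. Kit, a receptor gene of germ cells and other cells, was at 0.07 and 0.28, and its mean of 0.17 became 0.03 after median centring. Ddx4, a germ cell RNA helicase, was at 0.11 and 0.17, and its mean of 0.14 became 0.55 both in the authors' deposited table and with processed signals. Pou5f1, Dppa3, Prdm14 and Dazl were too dim to be tested. After adjustment limma called no gene of these 4 lists. Unadjusted p-values under 0.05 were found for 3 distal nephron genes (2 lower, 1 higher) and 4 neural crest genes (1 lower, 3 higher). The other lists had 0, and over all tested genes the share was 4.04%.

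Markers of blood and muscle cells were mostly higher in the mutant pools, in which Tfap2b was lower. Against 22.1% and 21.4% of all tested genes, 10 of 12 leukocyte markers were higher and 0 lower on both arrays. Their summed level, in intensity units with the offset taken off, was 41472 in the female and 72704 in the male mutant pool, against 32476 and 42627 in the female and male control pools. Such sums add levels of different probes, so the brightest probe weighs most, and they do not measure amounts of cells. Among the leukocyte markers the brightest was Itgam, with ratios of -0.03 and 0.75. S100a8 and S100a9, calcium-binding proteins of neutrophils, were at 1.98 and 2.07, and at 1.98 and 2.43, and both passed limma's adjusted p. Csf1r, the macrophage receptor for colony-stimulating factor, was at 0.77 and 0.77 at its brightest probe and between 0.07 and 0.38 at its others. Tyrobp, an adaptor of myeloid receptors, was at 0.64 and 0.88. Of 10 erythroid markers 8 were higher and 0 lower on both arrays. These 10 summed to 540213 and 537834 in the mutant pools, against 215815 and 388038 in the control pools. The brightest was the globin gene Hba-a1, with ratios of 1.32 and 0.48, and Alas2, an enzyme of haem synthesis, was at 0.99 and 0.71. Klf1, at 0.49 and -0.10, and Gata1, at 0.64 and -0.40, differed in sign between the arrays and were named after their values were seen. Skeletal muscle markers summed to 4150 and 4584 in the mutant pools, against 2636 and 2316 in the control pools, with Myog at 0.88 and 0.84 and Myl1 at 0.80 and 0.82. Epithelial markers summed to 70016 and 65996 in the mutant pools, against 78535 and 82667 in the control pools. The brightest of these was Krt18, with ratios of -0.23 and -0.52. The part of these cell types in the ratios of Tfap2b and Tfap2a was not tested.

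**Figure D4:**
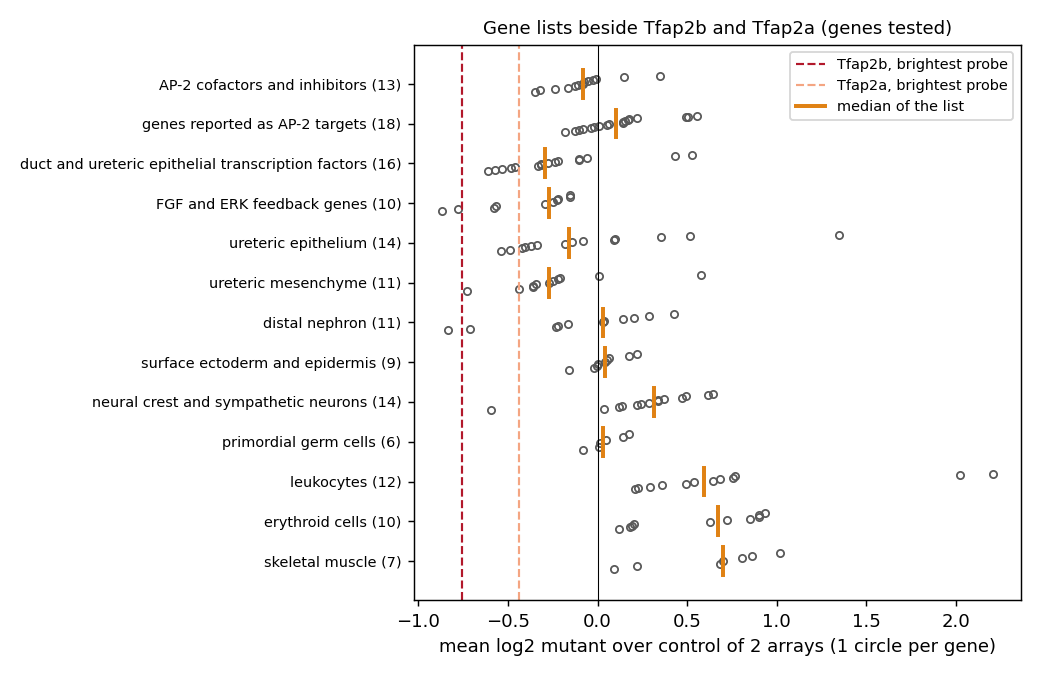
Mean log2 mutant over control of every tested gene (circles) in 13 gene lists, with list medians in orange and the brightest probes of Tfap2b (-0.76) and Tfap2a (-0.44) as dashed lines. The list medians run from -0.29 for duct and ureteric epithelial transcription factors to 0.70 for skeletal muscle.

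In the mouse gene table Tfap2d and Tfap2b lie next to each other on chromosome 1, followed by Pkhd1, the gene of recessive polycystic kidney disease. Pkhd1 was tested with 2 probes that disagreed. One was at -0.31 and -0.77, and the other at -0.15 and 0.60. The protein-coding genes beyond this group, Crisp4, Defb18 and Defb41 on one side and Il17a and Il17f on the other, were not tested because their probes were too dim. Tfap2d itself, as given above, was not well above background.

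The ratios of Tfap2b and of the brighter Tfap2a probe kept their sign on both arrays under each treatment of the signals that was tried. Tfap2b had ratios from -0.90 to -0.72 on array 1 and from -0.86 to -0.74 on array 2. The brighter Tfap2a probe had ratios from -0.34 to -0.15 on array 1 and from -0.78 to -0.69 on array 2. The gap between the arrays for Tfap2a was thus present under every treatment, and for Tfap2b neither array was the lower one throughout.

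**Figure D5:**
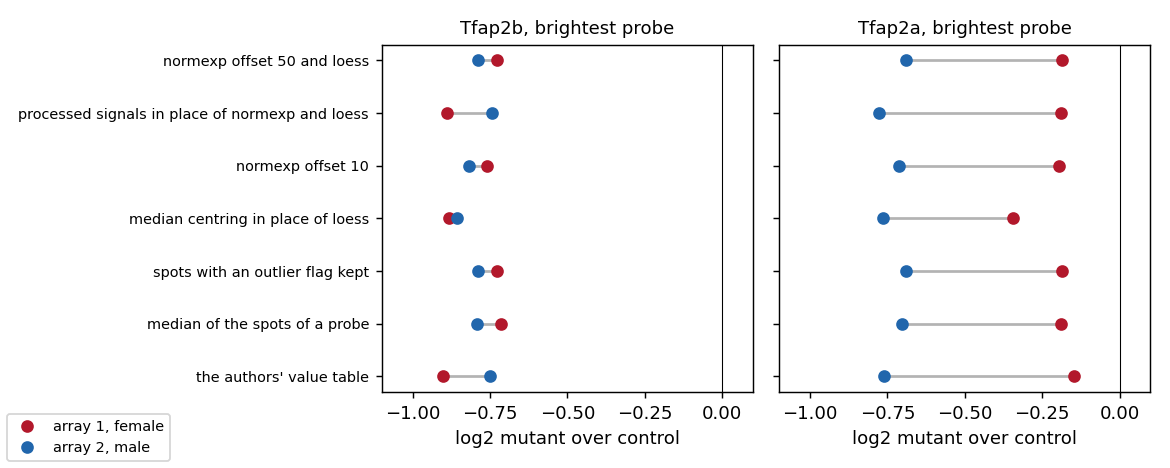
Log2 mutant over control of Tfap2b and of the brighter Tfap2a probe on array 1 (red) and array 2 (blue) under 7 treatments of the signals, named on the y axis. Tfap2b stays between -0.90 and -0.72 on both arrays, and Tfap2a stays lower on array 2 than on array 1.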

How the data were processed

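Each of 2 arrays of 2 colours compared RNA of mutant and control ureters, from 150 ng of total RNA per the labels' protocols. Feature Extraction 10.7.3.1 read the scans, per the submitters' processing notes. Mean and local background signals are raw intensity values, and processed signals are intensity values that the software had background-subtracted, detrended and dye-normalized, per the file headers. A further table, which the authors deposited, holds a score, namely a signed linear fold for each probe and array. How it was made is not stated in the sources, its column medians are 1, and its centring stays unknown.

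In limma 3.58.1 (R 4.3.3) the signals went through normexp with an offset of 50 and loess with a span of 0.3, in which control spots had weight 0. Outlier-flagged spots, 3.35% and 3.05%, were dropped, remaining spots averaged per probe, and the sign of array 2 turned. This left 27493 tested probes of 20923 genes, each gene represented by its brightest tested probe. Names were updated through RefSeq accessions of GRCm38.p6 (28328 probes matched), without its coordinates. Levels per pool are log2 values after Aquantile normalization. Calls over all genes came from lmFit and eBayes with Benjamini-Hochberg adjustment, on 1 residual and 6.32 prior degrees of freedom. The variance of each gene was thus drawn towards a value estimated from all genes. The p-values rest only on spread between these 2 arrays, which shared 1 slide. The fit was also run on simulated ratios, drawn independently for each array with no dye or sex effect, unlike the real design. It called 73% of genes planted at 2-fold and 100% of those at 4-fold, and 7.49% of its calls were unchanged genes.

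The members and lists were chosen with earlier results of these data known. The genes named were all AP-2 probes, all Kctd and Cited genes and the 5 genes with a symbol and ratios nearest those of Tfap2b. Of each list, up to 4 genes with a 1.5-fold change of one sign on both arrays were named, or else the 2 with the largest mean ratio among those of one sign.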

Additional observations from a re-analysis of the deposited data

Results flagged for a closer look

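A few values went opposite ways on the female and the male array, and these differences were not tested. Tfap2d, which was not well above background, was at -0.05 on array 1 and 0.08 on array 2, a difference of -0.13. The median of the AP-2 cofactors and inhibitors was 0.05 on array 1 and -0.20 on array 2, a difference of 0.25. Kctd15 was at 0.01 on array 1 and -0.16 on array 2, a difference of 0.17. Sex, dye orientation and replicate change together between the arrays.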

How the results depend on the processing

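The mean ratio of Tfap2b, -0.76, was -0.81 with the processed signals, -0.87 after median centring in place of loess and -0.83 in the authors' deposited table, and moved by less than the SD between the arrays under the other 3 treatments of the signals. It was -0.79 without replicate 1 and -0.73 without replicate 2, and Tfap2b was at least 1.5-fold lower on both arrays under each of 9 alternatives. Of the AP-2 probes, 4 were detected, 3 where every spot had to be well above background, which leaves out Tfap2c, and 4 where signals had only to be positive and significant. The number of genes passing limma, 6, was 11 with the processed signals, 14 with an offset of 10, 11 with outlier spots kept and 12 where both groups had to be well above background. It was 0 after median centring, 0 with dim probes included and 0 with no replicate block over the 4 channels, settings under which 853, 1076 and 530 genes had an unadjusted p under 0.05. Genes at least 1.5-fold lower on both arrays, 20, were 75 with the processed signals, 37 after median centring and 67 in the authors' deposited table. Genes lower on both arrays, 4483, were 7974 after median centring. Apart from the other numbers of probes tested under the filters, the cause was not tested. The alternatives for list genes and list medians were chosen after seeing the data. The number of arrays limits the precision, and Tfap2c, Tfap2d and Tfap2e are limited by signal near or under background.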
